A study of Mus musculus with 8 samples.

Results

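The Bcl2 family decides whether a cell keeps or loses the integrity of its mitochondria, and 10 of its genes were followed here in mouse acute myeloid leukaemias. They were taken by gene symbol: the survival genes Bcl2, Bcl2l1 and Mcl1, the effectors Bax and Bak1, and the BH3-only genes Bcl2l11, Bbc3, Pmaip1, Bid and Bad. All 10 had a row among the 18860 genes of each library, and all 10 passed the filter on low values, which 14679 genes passed. RNA was sequenced from leukaemia cells of C57BL/6 marrow, collected when the animals were moribund, in 2 cohorts of 4 lines. The 11B3-deleted group carried 11B3fl/p53fl;shNf1;shMll3;Vav1-Cre (n = 4 libraries), in which Cre removes the 11B3 interval of chromosome 11, with Trp53 inside it, from 1 chromosome and Trp53 alone from the other. The p53-loss-only group carried p53fl/fl;shNf1;shMll3;Vav1-Cre (n = 4 libraries), in which both chromosomes lose Trp53 alone. Both groups therefore lack p53 and carry shNf1 and shMll3, hairpins that lower Nf1 (an inhibitor of Ras) and Mll3 (a histone methyltransferase), with Cre driven by Vav1, a gene of blood cells. The comparison asks what loss of the rest of the interval adds to loss of p53. Whether every line came from its own animal is not stated in the labels, and p-values cover only the spread seen among these 8 libraries.

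Survival proteins of the family hold Bax and Bak in check at the outer mitochondrial membrane. BH3-only proteins respond to stress, bind the survival proteins or activate Bax and Bak directly, and the freed effectors open the membrane and release cytochrome c. In blood cells the balance between Mcl1 and Bcl2 on one side and Bim, the product of Bcl2l11, on the other sets much of cell survival, and the proteins of Bbc3 (Puma), Pmaip1 (Noxa) and Bax are products of p53 target genes. Much of the control lies beyond RNA: Mcl1 protein turns over fast, Bid is cut by caspase-8 and Bad is held by phosphorylation, so the values below describe transcripts only.

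Reads counted to genes came to 30502718 to 35719495 per library. They were recovered from the deposited values, which are reads scaled by a factor fixed within each library, with 1 added. Trp53 stood at 308.9 ± 98.77 in 11B3-deleted and 417.5 ± 118.1 in p53-loss-only libraries (SD, n = 4 each). Transcript outside the deleted exons may persist, so these reads do not check the labels. All 8 genes of the myeloid list, among them Mpo, Lyz2 and Itgam, were detected in every library, with a summed value of 237526 to 776979 in 11B3-deleted and 325302 to 546307 in p53-loss-only libraries. Mean log2 values were lower in the 11B3-deleted group for 7 of these genes and higher for 1, Mpo. Mpo reached 414000 in 11B3-deleted replicate 4, the library with the highest sum. Other cell types varied: the 13 erythroid markers summed to 13193 to 215128 in 11B3-deleted and 2876 to 51745 in p53-loss-only libraries, highest in 11B3-deleted replicate 1. The 10 B cell markers summed to 54885 in 11B3-deleted replicate 3, to between 405 and 1575 in the other 11B3-deleted libraries and to 425 to 2200 in p53-loss-only libraries. Granulocyte markers summed to 96719 to 322291 in 11B3-deleted and 197343 to 272573 in p53-loss-only libraries, and progenitor markers to 20113 to 33951 in 11B3-deleted and 20304 to 46057 in p53-loss-only libraries. The 8 monocyte and macrophage markers summed to 35017 to 59726 in 11B3-deleted and 35387 to 108161 in p53-loss-only libraries. Their mean log2 values were lower in the 11B3-deleted group for 5 and higher for 3 (Mrc1, Ccr2 and C1qa). Of these 3, Ccr2 and C1qa had lower arithmetic means in that group (12680 against 15570, and 194.5 against 200.1). Mrc1 had 120.8 to 183.6 in 11B3-deleted and 68 to 144.1 in p53-loss-only libraries. Of the 8 markers, 2 separated the groups completely, both chosen here for that, where 2.15% of all tested genes did so. Cx3cr1, a chemokine receptor, had 82.8 to 1237 in 11B3-deleted and 2281 to 3890 in p53-loss-only libraries. Cd68, a lysosomal protein whose gene lies on chromosome 11 within the interval, had 826.8 to 1913 in 11B3-deleted and 3414 to 8889 in p53-loss-only libraries. No marker on these lists was at 0 reads in any library. In bulk RNA, fewer cells of a type and less RNA per cell cannot be told apart.

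None of the 10 Bcl2 family genes differed between the genotypes by the test across all genes. With limma, Benjamini-Hochberg adjustment over all genes tested and a threshold of 0.05, 0 members were called, against a background of 0.0136% of tested genes, and edgeR (0.00681% of genes) and DESeq2 (0.434% of the genes given an adjusted p) also called 0 members. At an unadjusted p under 0.05, 1 member was lower, Pmaip1, and 0 were higher, where limma places 3.56% of all tested genes past that mark (2.38% lower and 1.18% higher). Pmaip1 was also the 1 member past it with edgeR (4.2% of genes) and with DESeq2 (5.49% of genes). In all 10 genes the libraries of the 2 groups overlapped, where the groups stood apart in 2.15% of all tested genes. The mean log2 value was lower in the 11B3-deleted group for 8 members and higher for 2, where 48.4% of all genes tested had a lower one. The members' median log2 difference was -0.19, against 0.01 over all genes tested. None of the members lies on chromosome 11, so none lost a copy with the interval. The smallest adjusted p of a member over every alternative tried was 0.532.

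**Figure D1:**
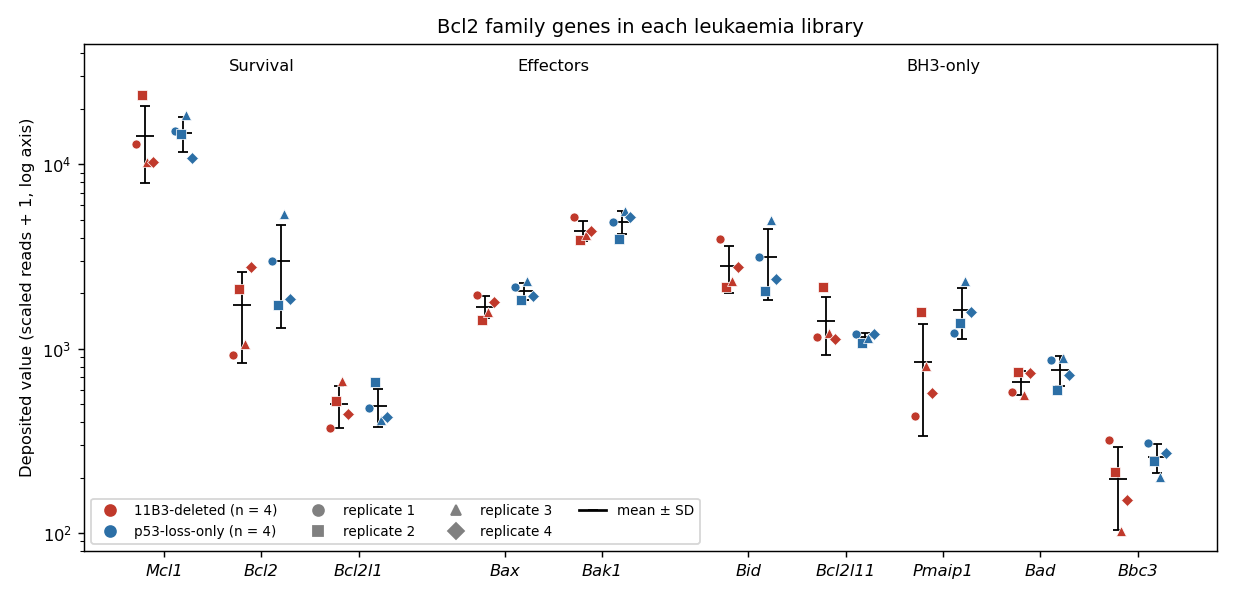
Deposited value (reads scaled by library plus 1, log axis) of each Bcl2 family gene in 4 11B3-deleted (red, left of each pair) and 4 p53-loss-only (blue, right) libraries, marker shape giving the replicate and the black bars mean ± SD. The groups overlap for each of the 10 genes; Mcl1 lies above 10000 in all 8 libraries and Bbc3 at or below 320.3.

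**Figure D2:**
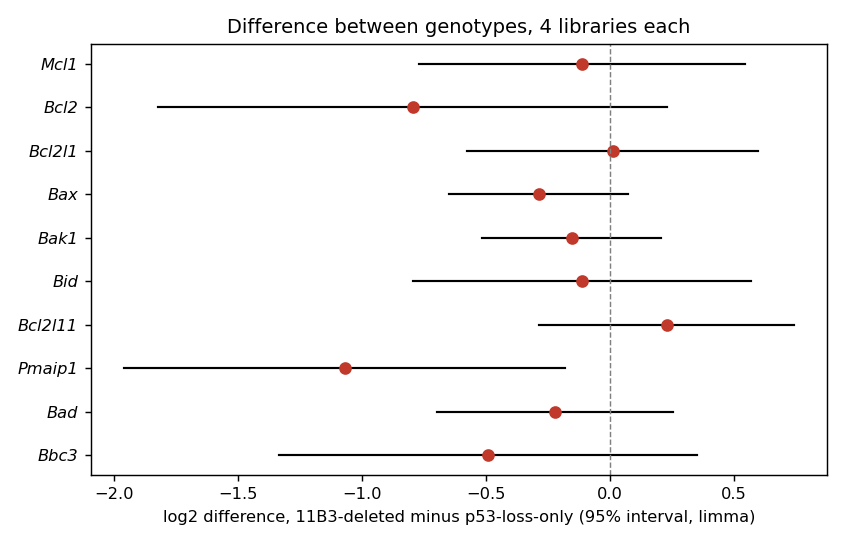
Log2 difference, 11B3-deleted minus p53-loss-only, of each gene with its 95% interval from limma (4 libraries a group). The intervals of 9 genes include 0; that of Pmaip1 runs from -1.96 to -0.18, before any adjustment for the number of genes tested.

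Among the survival genes, Mcl1 was by far the most abundant. Mcl1, which protects blood stem cells and myeloid leukaemias, measured 12843, 23813, 10274 and 10365 in the 11B3-deleted libraries (replicates 1 to 4), against 15179, 14559, 18579 and 10819 in p53-loss-only replicates 1 to 4. 11B3-deleted replicate 2 was the highest of the 8, and replicates 3 and 4 of its group were below every p53-loss-only library. The log2 difference was -0.11 (SE 0.29, 95% interval -0.77 to 0.55, limma adjusted p = 0.996), and without 11B3-deleted replicate 2 it was -0.39.

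Bcl2, the founding member and the target of venetoclax, had 926.5, 2108, 1055 and 2776 in 11B3-deleted libraries, against 2981, 1734, 5389 and 1862 in p53-loss-only libraries. Its values ranged 5.82-fold over the 8 libraries, with 11B3-deleted replicates 1 and 3 below every p53-loss-only library and p53-loss-only replicate 3 above all others. The log2 difference was -0.80 (SE 0.46, 95% interval -1.82 to 0.23, limma adjusted p = 0.996). It came to -0.46 without p53-loss-only replicate 3 and to -1.08 without 11B3-deleted replicate 4, an alternative in which its unadjusted p was 0.0444. The 2 low libraries were also those with the most erythroid and the most B cell marker RNA, and p53-loss-only replicate 3 had the highest monocyte and macrophage sum (108161, against 35017 to 59726 in 11B3-deleted and 35387 to 79894 in the other p53-loss-only libraries). The part of these cells in the Bcl2 values was not tested.

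Bcl2l1, which encodes Bcl-xL and by alternative splicing the short death-promoting Bcl-xS, had 370, 517.5, 667.9 and 440.3 in 11B3-deleted libraries, against 473.9, 658.8, 411.1 and 423.8 in p53-loss-only libraries. Counts per gene do not separate the splice forms. The group means nearly coincided, at 498.9 ± 127.7 in 11B3-deleted and 491.9 ± 114.5 in p53-loss-only libraries (SD, n = 4 each). The log2 difference was 0.01 (SE 0.26, 95% interval -0.57 to 0.60, limma adjusted p = 0.999), an interval that leaves room for changes of that size in either direction. The highest value, 667.9, was in 11B3-deleted replicate 3, the library with the highest B cell marker sum (54885). In p53-loss-only replicate 2 the value was 658.8 and the B cell marker sum 2200. The part of B cells in the Bcl2l1 values was not tested.

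The effectors were the steadiest genes of the family. Bax, the soluble effector that moves to mitochondria when activated, had 1964, 1439, 1584 and 1782 in 11B3-deleted libraries, against 2151, 1836, 2321 and 1927 in p53-loss-only libraries. In 3 of 4 11B3-deleted libraries Bax was below the lowest p53-loss-only library, and 11B3-deleted replicate 1 lay inside the other group's range. The log2 difference was -0.29 (SE 0.16, 95% interval -0.65 to 0.08, limma adjusted p = 0.996), so that Bax stood at 82% of its level without the interval deletion. Bak1, the effector that resides on the outer mitochondrial membrane, had 5164, 3884, 4114 and 4353 in 11B3-deleted libraries, against 4848, 3954, 5566 and 5151 in p53-loss-only libraries. Its groups overlapped across most of their range (log2 difference -0.15, SE 0.16, 95% interval from -0.52 to 0.21, limma adjusted p = 0.996). The Bak1 difference was -0.25 without p53-loss-only replicate 2 and -0.09 without p53-loss-only replicate 3. The spread between libraries of a group was 0.18 for Bax and 0.20 for Bak1 (SD on the log2 scale), against a median of 0.44 over all tested genes. Among all tested genes 6% had a within-group SD as small as that of Bax, and 8.65% one as small as that of Bak1.

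Bax is a classical p53 target, and its promoter is shown because the gene was measured here in cells without p53. The 250 bases before its start, from RefSeq on GRCm38.p6 (chr7:45466899-45467148, minus strand), hold a match to the p53 half-site by sequence, given in capitals.
Bax: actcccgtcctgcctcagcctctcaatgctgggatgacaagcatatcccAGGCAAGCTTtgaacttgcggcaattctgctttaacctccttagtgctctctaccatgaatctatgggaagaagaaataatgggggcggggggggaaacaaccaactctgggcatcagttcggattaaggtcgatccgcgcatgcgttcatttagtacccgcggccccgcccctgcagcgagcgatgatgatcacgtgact
The match starts 201 bases before the gene start. The half-site, which reads the same on both strands, was searched in windows of 300 bases (250 before a start, 50 after); it was present in 1 of the 15 windows found for 9 of the members and in 8.36% of all 32851 windows. The match describes letters and does not show binding.

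Of the BH3-only genes, Pmaip1 had the lowest group mean relative to p53-loss-only leukaemias. Pmaip1, whose product Noxa binds Mcl1 and promotes its degradation, had 430.6, 1581, 808.4 and 577 in 11B3-deleted libraries, against 1214, 1373, 2338 and 1583 in p53-loss-only libraries. In 3 of 4 11B3-deleted libraries it was below every p53-loss-only library, while 11B3-deleted replicate 2 stood among the p53-loss-only values. That is 47.6% of the level in p53-loss-only leukaemias, a log2 difference of -1.07 with SE 0.39 and a 95% interval of -1.96 to -0.18. It did not pass the test (limma unadjusted p = 0.0236, adjusted p = 0.996, DESeq2 adjusted p = 0.745). Without 11B3-deleted replicate 2 its log2 difference was -1.43 (limma unadjusted p = 0.0015, adjusted p = 0.532). The unadjusted p rose above 0.05 without 11B3-deleted replicate 1 (limma unadjusted p = 0.0634), without 11B3-deleted replicate 4 (limma unadjusted p = 0.0623) or without p53-loss-only replicate 3 (limma unadjusted p = 0.0665). The lowest Pmaip1 value was in the library with the highest erythroid sum, and without that library the log2 difference was -0.80; the part of erythroid cells was not tested beyond this. The highest Pmaip1 value, in p53-loss-only replicate 3, was in the library with the lowest erythroid sum (2876) and the highest monocyte and macrophage sum (108161). Without it the log2 difference was -0.88, and the part of monocytes was not tested beyond this.

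Bcl2l11, whose product Bim activates Bax and Bak and binds all the survival proteins, was nearly constant outside a single library. It had 1161, 2154, 1211 and 1129 in 11B3-deleted libraries, against 1208, 1077, 1149 and 1209 in p53-loss-only libraries. Apart from 11B3-deleted replicate 2, the 7 libraries lay between 1077 and 1211. The log2 difference was 0.23 (SE 0.23, 95% interval -0.28 to 0.74, limma adjusted p = 0.996), and without 11B3-deleted replicate 2 it was 0.01.

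Bim is known to be induced by FoxO factors, and the promoter of Bcl2l11 is shown for that reason. A search for GTAAACA, a core of the FOXO motif, on both strands found it in windows of Bcl2l11 and Bbc3. These were 2 of the 15 windows, where 3.65% of all windows held it. TTCNNNGAA, the STAT motif, was in none of the 15 and in 8.3% of all windows. No member held matches to 2 of the motifs searched. The 250 bases before the Bcl2l11 start (RefSeq, GRCm38.p6, chr2:128125788-128126037, plus strand) carry the FOXO match in capitals, starting 227 bases before the gene start.
Bcl2l11: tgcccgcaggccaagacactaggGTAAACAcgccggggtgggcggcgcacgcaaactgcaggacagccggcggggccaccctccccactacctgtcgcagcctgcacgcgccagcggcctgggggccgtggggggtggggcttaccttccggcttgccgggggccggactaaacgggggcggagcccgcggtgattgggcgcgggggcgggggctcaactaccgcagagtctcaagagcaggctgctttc
Foxo3 and Foxo1, the FoxO genes on the list of factors, were not called, with log2 differences of -0.07 (SE 0.26) for Foxo3 and 0.64 (SE 0.51) for Foxo1 (limma adjusted p = 0.996 each).

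Bbc3, whose product Puma binds every survival member, was the least abundant by value, at 320.3, 215.2, 102.8 and 151 in 11B3-deleted libraries, against 308.8, 246.9, 200.6 and 272.5 in p53-loss-only libraries. The highest and the lowest of the 8 values both came from the 11B3-deleted group, the highest in replicate 1 and the lowest in replicate 3. The log2 difference was -0.49 (SE 0.37, 95% interval -1.34 to 0.35, limma adjusted p = 0.996). It was -0.77 without 11B3-deleted replicate 1 and -0.22 without 11B3-deleted replicate 3. Bid, which links death receptors to mitochondria once caspase-8 has cut it, had 3946, 2175, 2331 and 2791 in 11B3-deleted libraries, against 3135, 2044, 4981 and 2390 in p53-loss-only libraries. Its groups covered much the same range (log2 difference -0.11, SE 0.30, 95% interval from -0.79 to 0.57, limma adjusted p = 0.996). Bad, whose product is held by 14-3-3 proteins while phosphorylated, had 581.9, 744.6, 564.1 and 741.2 in 11B3-deleted libraries, against 873, 593.6, 895.8 and 723 in p53-loss-only libraries. Bad varied little, and its difference did not pass (log2 difference -0.22, SE 0.21, 95% interval from -0.70 to 0.25, limma adjusted p = 0.996). It came to -0.34 without p53-loss-only replicate 2 and to -0.14 without p53-loss-only replicate 3.

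To compare genes with each other, values were divided by the annotated exon length. Per kilobase, Mcl1 led with a geometric mean of 4085 over the 8 libraries (range 3006 to 6967), followed by Bak1 (1907), Bax (1177) and Bid (800.4). Each of these 4 exceeded the next gene of the order in all 8 libraries. Below Bid the order was less firm: Pmaip1 (397.7 per kilobase) exceeded Bad (275.1) in 6 libraries, Bad exceeded Bcl2 (222.4) in 6, and Bcl2 exceeded Bcl2l11 (156.3) in 5. Bcl2l11 exceeded Bcl2l1 (105.5 per kilobase) in 7 libraries. Bcl2l1 and Bbc3 (100.4) were at the bottom, and Bcl2l1 was the higher in 4 of 8 libraries, so that their order was not settled. With the longest annotated transcript as the length, Bad and Pmaip1 changed places (459 and 398.4 per kilobase), no other gene moved in the order, and Bak1 exceeded Bax in 7 libraries.

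As a share of the family per kilobase, Mcl1 made up 41.2, 59.6, 40.9 and 38.5% in the 11B3-deleted libraries (replicates 1 to 4), against 43.5, 47.6, 42.7 and 36.7% in p53-loss-only replicates 1 to 4. Both genotypes thus spanned a like range apart from 11B3-deleted replicate 2. Within the survival genes, Mcl1 was 88.4 to 95.4% of the sum per kilobase in 11B3-deleted libraries and 88.9 to 92.8% in p53-loss-only libraries. The ratio of Bax to Bak1 per kilobase of annotated exon was 0.581, 0.566, 0.588 and 0.625 in 11B3-deleted libraries and 0.677, 0.709, 0.637 and 0.571 in p53-loss-only libraries. The lowest p53-loss-only ratio fell among the 11B3-deleted ones, so these groups overlapped too. Bak1 was above Bax in all 8 libraries with this length, and in 7 with the longest transcript as the length, p53-loss-only replicate 2 being the exception (Bax 1668 and Bak1 1656 per kilobase).

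**Figure D3:**
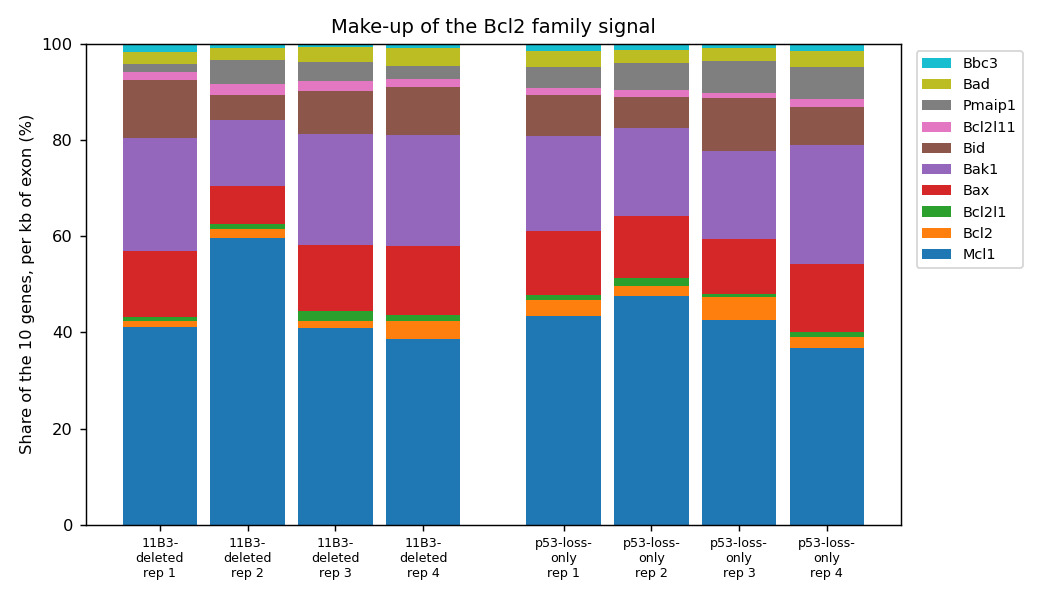
Share of each gene in the summed Bcl2 family signal per kilobase of exon (%, stacked to 100) in 4 11B3-deleted libraries (left) and 4 p53-loss-only libraries (right). Mcl1 takes 38.5 to 59.6% in the 11B3-deleted and 36.7 to 47.6% in the p53-loss-only libraries, and Bak1 is the next largest share in each.

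The balance of survival to death genes was described within each library, where scaling between libraries cancels, and was given no test. Per kilobase, the sum of Bcl2, Bcl2l1 and Mcl1 over the sum of the 7 death genes was 0.760, 1.67, 0.800 and 0.774 in 11B3-deleted libraries, against 0.912, 1.05, 0.922 and 0.669 in p53-loss-only libraries. It was below 1 in 3 of 4 libraries of each genotype, and the groups overlapped. Without division by length the ratio was 1.04, 2.17, 1.12 and 1.18 in 11B3-deleted libraries, against 1.36, 1.53, 1.4 and 0.989 in p53-loss-only libraries, so which side is the larger depends on the scale. The mean log2 balance per kilobase was -0.09 ± 0.55 in 11B3-deleted and -0.19 ± 0.28 in p53-loss-only libraries (SD, n = 4 each), a difference of 0.10 that is small beside either spread. Without division by length the difference was 0.02, and -0.23 when 11B3-deleted replicate 2 was left out as well. Set against the effectors alone, the survival sum per kilobase was 1.16, 2.89, 1.2 and 1.17 times the sum of Bax and Bak1 in 11B3-deleted libraries, against 1.44, 1.64, 1.62 and 1.03 times in p53-loss-only libraries. Without division by length those ratios ran from 1.98 to 4.97 in 11B3-deleted and from 1.85 to 3.09 in p53-loss-only libraries. 11B3-deleted replicate 2, with the most Mcl1 and the least Bax and Bak1, again stood above the rest.

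Ratios of single genes were taken without division by length, which shifts a ratio alike in every library and leaves the comparison of genotypes as it is. Of the 21 ratios of 1 survival to 1 death gene, 13 were higher on average in 11B3-deleted libraries and 8 lower. In 1 of the 21 the groups did not overlap, Mcl1 over Pmaip1. This ratio, of a survival gene to the gene of its selective antagonist, was singled out after its values were seen. It was 29.9, 15.1, 12.7 and 18 in 11B3-deleted libraries, against 12.5, 10.6, 7.95 and 6.84 in p53-loss-only libraries. The nearest libraries of the 2 groups, at 12.7 in 11B3-deleted and 12.5 in p53-loss-only, all but touched. On the log2 scale the means were 4.16 ± 0.53 in 11B3-deleted and 3.2 ± 0.39 in p53-loss-only libraries (SD, n = 4 each), a difference of 0.96. As background, the ratio of any other tested gene to Pmaip1 separated the groups in 9.07% of 14678 genes, and the ratio of Mcl1 to any other tested gene in 0.865%. Bcl2 over Bcl2l11 was 0.798, 0.979, 0.871 and 2.46 in 11B3-deleted libraries, against 2.47, 1.61, 4.69 and 1.54 in p53-loss-only libraries. There 3 of 4 11B3-deleted libraries lay below all p53-loss-only libraries, and replicate 4 fell inside their range.

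**Figure D4:**
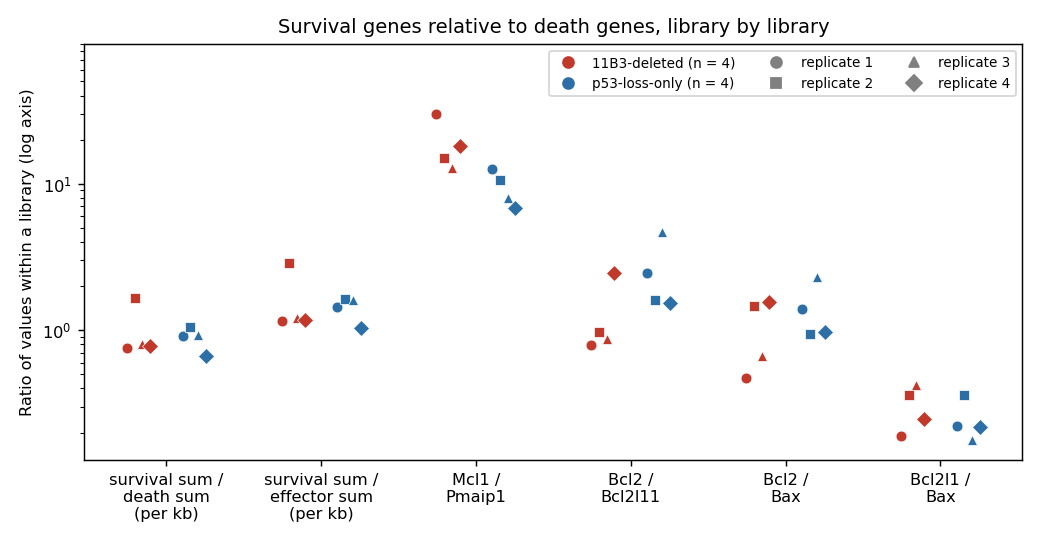
Ratios of survival to death genes within each library (log axis; sums per kilobase of exon, single genes as deposited) for 11B3-deleted (red, left) and p53-loss-only (blue, right) libraries, marker shape giving the replicate. The groups overlap for each ratio drawn except Mcl1 over Pmaip1, which is 12.7 to 29.9 in 11B3-deleted and 6.84 to 12.5 in p53-loss-only libraries.

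The 10 genes did not all rise and fall together between libraries. Relative to each gene's own mean, their median log2 value ran from -0.303 in 11B3-deleted replicate 3 to 0.334 in p53-loss-only replicate 3. In the latter library Bcl2l1, Bcl2l11 and Bbc3 were below their own means. Of the 10 genes, 6 had their highest value in p53-loss-only replicate 3 (Bcl2, Bax, Bak1, Pmaip1, Bid and Bad), both survival and death genes among them. The share of all tested genes highest in that library is not given here, so the count describes these genes only. 11B3-deleted replicate 2 held the highest Mcl1 and Bcl2l11 and the lowest Bax and Bak1. 11B3-deleted replicate 1 had the lowest Bcl2, Bcl2l1 and Pmaip1 and the highest Bbc3, and replicate 3 of that group had the lowest Mcl1, Bad and Bbc3 and the highest Bcl2l1. The widest spreads were those of Pmaip1 and Bcl2 (SD 0.82 on the log2 scale over the 8 libraries for each), and the narrowest those of Bak1 (0.20) and Bax (0.22).

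**Figure D5:**
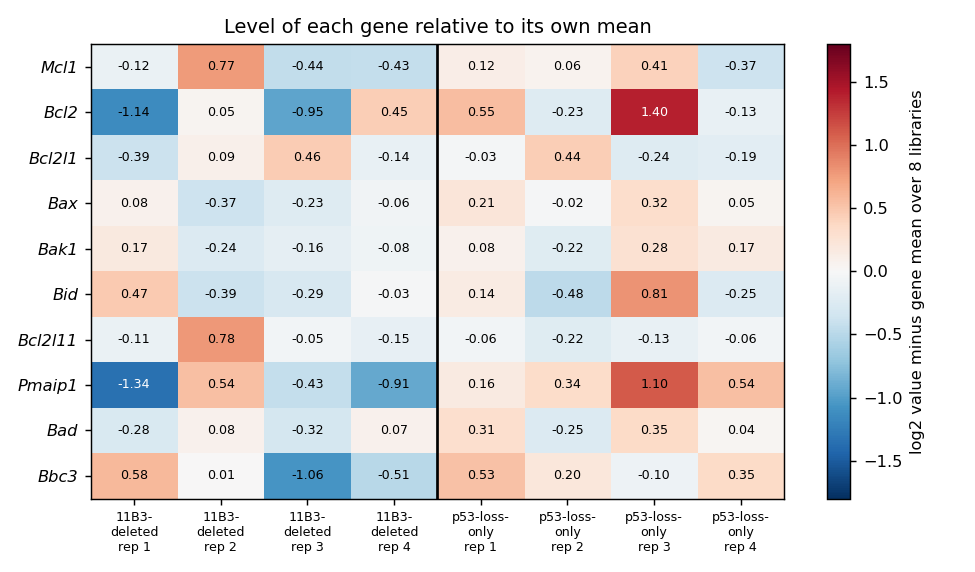
Log2 value of each gene minus its own mean over the 8 libraries (colour and printed number), with 11B3-deleted libraries left and p53-loss-only libraries right of the line. Bcl2 runs from -1.14 to 1.40 and Pmaip1 from -1.34 to 1.10, while Bax and Bak1 stay between -0.37 and 0.32.

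The genes closest in pattern to Pmaip1 and Bcl2 were sought among all 14679 tested genes by the root-mean-square difference of centred log2 values over the 8 libraries. Nearest to Pmaip1 were Slc27a1, a fatty acid transporter (0.19), and the predicted genes Gm14636 (0.24) and Gm17338 (0.24). Slc27a1 was at 169.9, 675.7, 335.4 and 261 in 11B3-deleted libraries and at 413.7, 405.6, 964.8 and 645.3 in p53-loss-only libraries, lowest and highest in the same libraries as Pmaip1. Nearest to Bcl2 were Ifngr1, a chain of the interferon gamma receptor (0.20), 1810014F10Rik (0.22) and Tnfrsf1a, a receptor for tumour necrosis factor (0.23). Ifngr1 was at 8298, 16728, 9931 and 18370 in 11B3-deleted libraries and at 18172, 13704, 36591 and 14724 in p53-loss-only libraries. Its lowest and highest libraries were again those of Bcl2. Slc27a1 and Ifngr1 were chosen for likeness in pattern, so shared extremes are no separate result.

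Among the other Bcl2 family genes, 13 of 16 listed had a row and 12 were tested, of which 0 were called. Mean log2 values were lower in the 11B3-deleted group for 8 and higher for 4 (median log2 difference -0.04). Of the 8 lower, Bmf, Bnip3 and Bnip3l had higher arithmetic means in that group. Bcl2l2, the survival gene for Bcl-w, was at 791.8, 2192, 694 and 1346 in 11B3-deleted libraries and at 1468, 1262, 1640 and 885.9 in p53-loss-only libraries. Of the BH3-only genes outside the 10, Bmf was at 717.6, 2056, 1152 and 1043 in 11B3-deleted libraries and at 1173, 1148, 1797 and 777.3 in p53-loss-only libraries. Bnip3, which also acts in mitophagy, reached 3048 in 11B3-deleted replicate 2 and lay between 556.6 and 641.5 in the other 11B3-deleted libraries, against 615.4 to 1125 in p53-loss-only libraries. These 3 genes, named after their values were seen, were all highest in 11B3-deleted replicate 2, as Mcl1 and Bcl2l11 were. Bcl2l14 had the smallest p of the list (log2 difference -0.62, SE 0.31, limma adjusted p = 0.996). The survival genes Bcl2a1a, Bcl2a1d and Bcl2a1b are near-identical copies. How the counting treated reads that match several copies is not known here, so their values may be too low. Bcl2a1a and Bcl2a1d were low, with means of 13.57 and 12.48 in 11B3-deleted and 20.07 and 24.12 in p53-loss-only libraries. Bcl2a1b averaged 72.07 in 11B3-deleted and 55.07 in p53-loss-only libraries. It reached 200.7 in 11B3-deleted replicate 3 and 122.1 in p53-loss-only replicate 2. The log2 difference was 0.15 (SE 0.82) for Bcl2a1b, -0.39 (SE 0.56) for Bcl2a1a and -0.98 (SE 0.92) for Bcl2a1d. Bok, an effector relative of Bax, lay between 4.3 and 10.7 over the 8 libraries and was not tested. Bcl2l13 (log2 difference 0.20, SE 0.26) shares 628 exon bases with Bid on the other strand.

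Downstream of the mitochondria, 0 of 10 genes of the apoptosome and caspases were called (5 lower and 5 higher mean log2 values, median log2 difference 0.01). Casp9, the initiator caspase of the apoptosome, averaged 1433 ± 184.2 in 11B3-deleted and 2019 ± 725.7 in p53-loss-only libraries (SD, n = 4 each), which on the log2 scale is -0.44 (SE 0.25). Endog, a mitochondrial nuclease (-0.39, SE 0.30), and Diablo, which blocks inhibitors of apoptosis (-0.24, SE 0.23), had log2 differences that did not pass either.

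In the remaining lists no gene was called. Of 5 inhibitors of apoptosis, all had higher mean log2 values (median log2 difference 0.11). Birc5 was at 0.33 (SE 0.25), Birc2 at 0.21 (SE 0.17), Birc6 at 0.11 (SE 0.14) and Birc3 at 0.02 (SE 0.22) on the log2 scale. Of the 10 death receptor genes 8 had lower mean log2 values (median log2 difference -0.10). The receptor Tnfrsf1a was at -0.62 (SE 0.38), the kinase Ripk1 at -0.18 (SE 0.19), the receptor Tnfrsf10b at 0.41 (SE 0.55) and the adaptor Tradd at -0.11 (SE 0.25). Partners that set turnover or place of the members had 3 lower and 7 higher mean log2 values (median log2 difference 0.18). Among them was Usp9x, a deubiquitinase that stabilises Mcl1, at 0.31 (SE 0.20). Fbxw7, which marks Mcl1 for degradation, had a log2 difference of 0.22 (SE 0.19), and the channels Vdac3 and Vdac1 of the outer membrane 0.26 (SE 0.20) and 0.30 (SE 0.26). Among 12 tested factors known to act on these genes, 5 had lower and 7 higher mean log2 values (median log2 difference 0.03). Trp53 was at -0.46 (SE 0.32), Stat5a at 0.34 (SE 0.25), Foxo1 at 0.64 (SE 0.51) and Myc at 0.39 (SE 0.49). The limma adjusted p was at least 0.996 for each gene of these lists.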

How the data were processed

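The deposited signal of a gene is its reads, scaled by library, plus 1, as the values show; build mm9 and the tools DESeq, HTSeq and STAR are listed per the submitters' processing notes, with no roles or versions. Dividing the value minus 1 by a step fixed within a library gave whole reads for 100% of values (tolerance 0.02), and edgeR on those reads called 1 gene. Because the values are not counts, the main test was limma-trend on log2 deposited values, 2-sided, with a group term only, for genes reaching 10 in 4 or more libraries. A log2 difference is on that scale, which holds the added 1 and understates low genes. Groups were taken from the titles. Per-kilobase levels used exon lengths from GENCODE vM21 (GRCm38), matched by Ensembl identifier, and promoter windows came from RefSeq; no mm9 coordinates are given. Of the 10 members, 5 share exon bases with another gene (Bad, Bak1, Bax, Bcl2 and Bid), 4 of them on the other strand, and strand use in the counting is unknown here. Members, lists and tests were chosen with earlier results of these data known. Genes named are the 10 members, the 4 with the smallest p of each list and the nearest in pattern; others were named for their role or after their values were seen, and a gene that the rule takes is not reported here. The scripts were tested on simulated data. All 28 pairs of libraries differed beyond counting noise (lowest chi-square over its degrees of freedom 92.3). The tools were DESeq2 1.42.0, edgeR 4.0.16 and limma 3.58.1 in R 4.3.3.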

Additional observations from a re-analysis of the deposited data

Results flagged for a closer look

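A library was looked at again where its log2 value stood apart from the other 3 of its group by more of the group's range than Dixon's 95% critical value for 4 samples allows. Of 86 groups of 4 examined, over 43 genes and ratios, 8 were flagged, all in 11B3-deleted replicate 2. Among these only Bcl2l11 and Tradd were single genes, and the rest were ratios of the members. Several of the ratios share genes, so they are not separate observations. Chance flags about 1 in 20 separate observations, and 8 of 86 cannot be set against that rate. Bcl2l11 was at 2154.3 in that library, above the other 11B3-deleted libraries, and Tradd at 485.3, below them. The ratio of the survival sum to the death sum was 2.17 there, and 1.67 per kilobase. The survival sum was 3.95 times the BH3-only sum per kilobase, and 4.97 times the effector sum, or 2.89 times per kilobase. The BH3-only sum was 0.733 of the effector sum per kilobase.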

How the results depend on the processing

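With each alternative tried, 0 of the 10 members were called. The number of genes called over the whole table was 2 with limma, 1 with a minimum value of 50, 1 with edgeR, 58 with DESeq2, 0 with limma voom and sample weights, 1 with an added constant of 5 and 0 with the replicate block; leaving out 1 library gave 0 to 1. The labels do not say whether the replicate numbers pair the libraries. Deviations of same-numbered libraries had correlations of -0.03, -0.217, -0.414 and -0.243, which cannot settle whether they shared a batch. The block left Pmaip1 at -1.07 (limma unadjusted p = 0.0234). Of the members' log2 differences, 152 values under alternatives kept their sign and 8 changed it, each of them when 1 library was left out: Bcl2l1 ranged from -0.139 to 0.162, Mcl1 from -0.387 to 0.017 and Bid from -0.29 to 0.139. Pmaip1 ranged from -1.43 to -0.803, Bcl2 from -1.08 to -0.46, Bbc3 from -0.765 to -0.219, Bak1 from -0.251 to -0.0865, Bax from -0.362 to -0.212, Bad from -0.342 to -0.144 and Bcl2l11 from 0.00864 to 0.319. The difference in the log2 survival to death balance was 0.102 per kilobase and 0.0158 without division by length, the second ranging from -0.225 to 0.127 when 1 library was left out. At 30502718 reads or more per library, the fewest reads of a member were 105 (Bbc3 in 11B3-deleted replicate 3), so the spread between libraries and not depth limits the intervals.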
